A study of Oryctolagus cuniculus with 8 samples.

Results

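Insulin and the insulin-like growth factors (IGFs) act through a small set of proteins whose transcripts were followed here in the retinas of rabbits on 4 diets. The genes were taken by symbol from a list of 10: the ligands IGF1 and IGF2, the receptors INSR and IGF1R, the adaptors IRS1 and IRS2, and the binding proteins IGFBP2, IGFBP3, IGFBP5 and IGFBP7. Rows were found for 6 of the 10 (IGF1, INSR, IGF1R, IRS1, IGFBP2 and IGFBP5) among 25666 genes, of which 19293 were protein-coding. No row carried the symbols IGF2, IRS2, IGFBP3 or IGFBP7, and these 4 genes were not analysed here. All 6 genes found passed the filter on low values, which 12204 protein-coding genes passed.

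The data were RNA sequencing libraries of 8 retinas from wild-type male Chinchilla rabbits, with 2 retinas for each diet. The ND group ate standard chow, the HFD group chow with 10% lard and 0.5% cholesterol, the HSD group chow with 40% sucrose, and the HFSD group chow with the lard and cholesterol of HFD together with 35% sucrose, each for 6 months up to an age of about 10 months. The sucrose content of the HSD and HFSD diets was therefore not the same. The labels do not say that the retinas of a diet came from different rabbits, so the tests measure the spread between these samples only. Values were FPKM (fragments scaled by gene length and by the size of the library), and the fragments recovered from the values summed to 15223355 to 22293220 per library over all genes.

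Insulin and IGF1 bind related receptor tyrosine kinases, INSR and IGF1R, which phosphorylate adaptors such as IRS1 and thereby switch on the PI3K-AKT-mTOR and the Ras-ERK cascades. The secreted IGF binding proteins hold IGF1 and IGF2 in the extracellular space, prolong their life and limit or direct their access to the receptor, and proteases release the ligands again. In the retina these pathways are known for supporting the survival of neurons and photoreceptors and for acting on vessels, and the question of the diets was what a surplus of fat or sucrose does to this tissue.

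The 4 genes of the signalling arm (the ligand, both receptors and the adaptor) were each lowest in the 2 HFD retinas, and the 2 binding proteins were at their lowest mean levels on the sucrose diets. No difference of any of the 6 genes passed limma's test after adjustment over all genes. Levels of the signalling arm differed little, by 1.31-fold for IRS1 to 2.01-fold for IGF1 between the lowest and the highest of the 8 retinas, whereas IGFBP2 ranged over 5.66-fold and IGFBP5 over 6.56-fold. By mean FPKM, IGFBP5 was the most abundant of the 6 at 30.3 and IRS1 the least at 6.90, and the mean of IGFBP5 was above that of 72.9% of the genes tested.

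**Figure D1:**
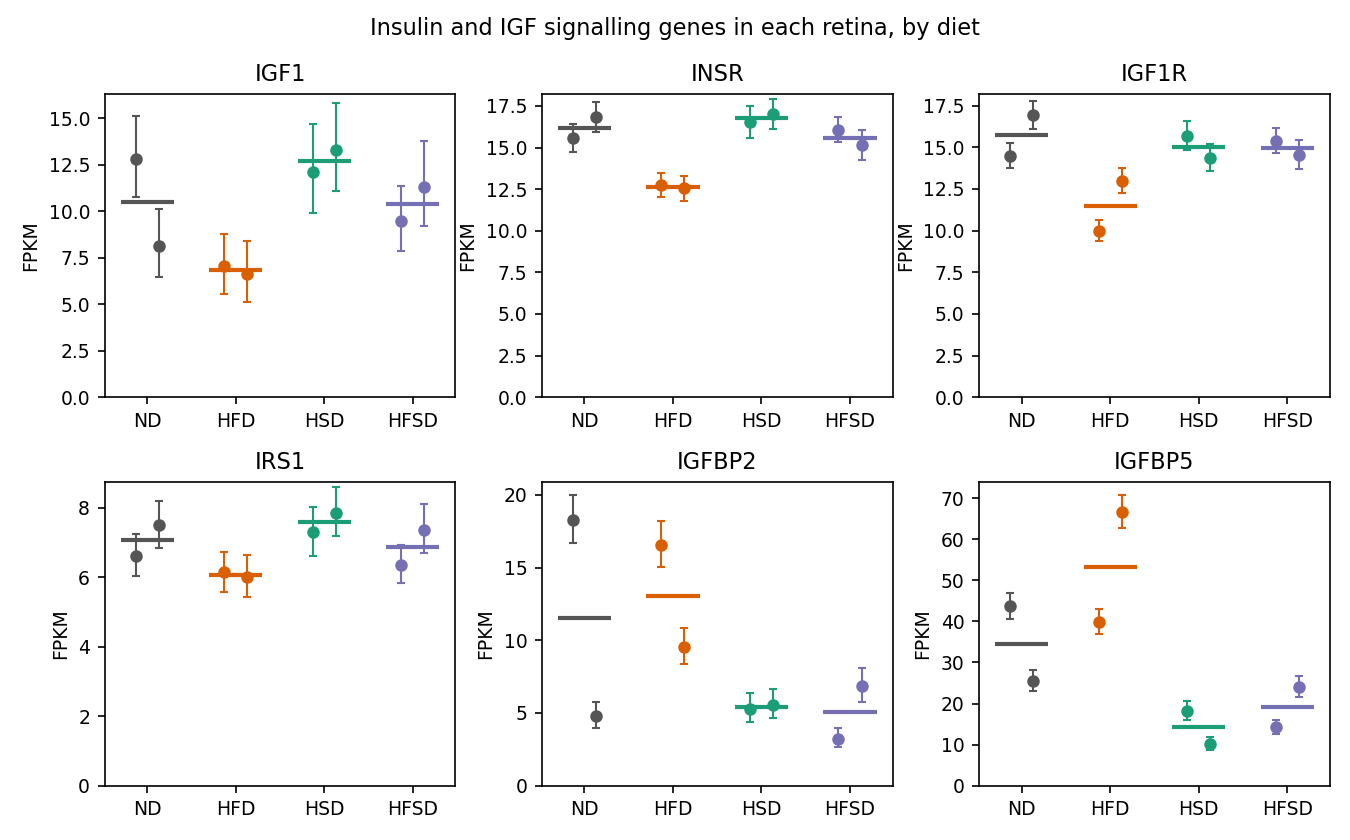
FPKM of the 6 genes in each of the 8 retinas, by diet. Points are single retinas with 95% exact Poisson intervals of their fragments (counting error only) and bars are diet means. INSR lies between 12.5 and 12.8 in the HFD retinas and at 15.1 or above in the other 6, and IGFBP5 is highest in HFD retina 2 at 66.7.

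IGF1, the ligand of IGF1R, was measured at 12.8 and 8.14 FPKM on ND, 7.04 and 6.62 on HFD, 12.1 and 13.3 on HSD and 9.49 and 11.3 on HFSD. Both HFD values lay below the other 6, the nearest of which was ND retina 2. The means rose in the order HFD (6.83 ± 0.298, SD, n = 2), HFSD (10.4 ± 1.28), ND (10.5 ± 3.30) and HSD (12.7 ± 0.814). Of the neighbours in this order, HFD and HFSD did not overlap, HFSD and ND overlapped, and ND and HSD overlapped. IGF1 rested on few fragments, from 67 in HFD retina 2 to 139 in ND retina 1, and the exact Poisson interval of HFD retina 2 (5.13 to 8.40 FPKM) held the value of ND retina 2.

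On the scale of log2(FPKM + 1), IGF1 in the HFD retinas differed from ND by -0.52 (SE 0.202, 95% interval -0.99 to -0.05, adjusted p = 0.998). Intervals here and below are those of single genes and are not adjusted for the number of genes. Averaged over fat, the sucrose diets exceeded the diets without sucrose by 0.41 (SE 0.143, 0.08 to 0.75, adjusted p = 0.207), and averaged over sucrose, the fat diets lay 0.39 below the others (log2 difference -0.39, SE 0.143, -0.73 to -0.06, adjusted p = 0.9996). HSD differed from ND by 0.28 and HFSD by 0.02, both within the difference between the ND retinas. Without ND retina 1 the difference of HFD from ND was -0.22 and the fat difference -0.25, and HSD and HFSD differed from ND by 0.58 and 0.31. Without ND retina 2 these were -0.82 for HFD, -0.01 for HSD and -0.28 for HFSD, and the sucrose difference was 0.26.

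INSR, the insulin receptor, was measured at 15.6 and 16.8 FPKM on ND, 12.8 and 12.5 on HFD, 16.5 and 17.0 on HSD and 16.1 and 15.1 on HFSD. The HFD retinas stood apart from the 6 others, which all lay between 15.1 and 17.0. The order of the means was HFD (12.6 ± 0.148), HFSD (15.6 ± 0.664), ND (16.2 ± 0.893) and HSD (16.8 ± 0.354), in which the 3 upper diets overlapped with their neighbours. The HFD retinas differed from ND by -0.33 (SE 0.108, -0.58 to -0.08, adjusted p = 0.998), a difference that leaving out single libraries moved only between -0.38 and -0.28. HSD and HFSD differed from ND by 0.05 and -0.05, with intervals of -0.20 to 0.30 and -0.30 to 0.20. The number of fragments, 1056 to 1690 per retina, made counting error small beside the difference of HFD from ND.

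IGF1R, the receptor for IGF1 and the closest relative of INSR, was measured at 14.5 and 16.9 FPKM on ND, 9.98 and 12.98 on HFD, 15.7 and 14.4 on HSD and 15.4 and 14.6 on HFSD. Again both HFD retinas were below the other 6, and the lowest value was that of HFD retina 1. The means followed the order HFD (11.5 ± 2.12), HFSD (15.0 ± 0.596), HSD (15.0 ± 0.940) and ND (15.7 ± 1.72), and the 3 upper diets overlapped. The HFD retinas differed from ND by -0.43 (SE 0.152, -0.78 to -0.07, adjusted p = 0.998), and HSD and HFSD from ND by -0.06 each. Leaving out HFD retina 1 left a difference of HFD from ND of -0.25. The ratio of IGF1R to INSR, both in FPKM, lay between 0.783 in HFD retina 1 and 1.04 in HFD retina 2. The HFD ratios thus spanned those of all other retinas, and each diet overlapped with ND (0.932 and 1.01). The HSD ratios (0.951 and 0.845) lay just below those of HFSD (0.958 and 0.962).

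IRS1, the adaptor that links both receptors to PI3K, was measured at 6.62 and 7.51 FPKM on ND, 6.14 and 6.02 on HFD, 7.30 and 7.87 on HSD and 6.36 and 7.38 on HFSD. Its HFD values were the lowest of the 8, but ND retina 1 and HFSD retina 1 came within the counting error of both. The means ran from HFD (6.08 ± 0.0865) through HFSD (6.87 ± 0.716) and ND (7.06 ± 0.632) to HSD (7.58 ± 0.405). The difference of HFD from ND was -0.19 (SE 0.136, -0.50 to 0.13, adjusted p = 0.998), and -0.11 without ND retina 2.

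For all 4 genes of the signalling arm, then, both HFD retinas lay below the 6 other retinas, a comparison chosen after the values had been seen. Over the genes tested, 6.37% had both HFD retinas below the other 6 and 5.42% had them above. The count of 4 of 6 genes was the same under both other scalings. Long genes showed this position more often, at 9.64% of the 3050 genes with the longest recovered lengths, to which INSR, IGF1R and IRS1 belonged, against 3.31% of the 3055 shortest, to which IGF1 belonged, and the part of gene length or RNA quality in the result was not tested. In the comparison of HFD with ND alone, these 4 genes did not overlap between the groups, which their position below the other 6 retinas already fixed. Of all genes tested, 25.9% did not overlap in this comparison. Limma called none of the 6 genes, and 1 gene of 12204 (0.00819%), while 3 of the 6 and 526 of 12204 had an unadjusted p under 0.05. The median log2 difference of the 6 genes was -0.26, and that of all genes tested was 0.01. HFSD retinas, which had eaten the same lard and cholesterol, did not share the position, and INSR, IGF1R and IRS1 differed from ND by -0.05, -0.06 and -0.04 in HFSD. The difference between HFSD and HFD was not tested on its own. The interaction of fat and sucrose, which sets HFD against ND beside HFSD against HSD, was 0.23 for INSR (SE 0.152), 0.42 for IGF1R (SE 0.214), 0.06 for IRS1 (SE 0.192) and 0.25 for IGF1 (SE 0.285), each with an adjusted p of 0.9993, and limma called 0.00819% of genes for it. The interaction of IGF1R was 0.25 without HFD retina 1.

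IGFBP5, the most conserved of the binding proteins and one that also attaches to extracellular matrix, was measured at 43.6 and 25.5 FPKM on ND, 39.9 and 66.7 on HFD, 18.3 and 10.2 on HSD and 14.2 and 24.0 on HFSD. All 4 retinas of the sucrose diets lay below all 4 retinas of the diets without sucrose, although HFSD retina 2 at 24.0 and ND retina 2 at 25.5 nearly met and overlapped when libraries were scaled to an equal FPKM sum. The means rose in the order HSD (14.2 ± 5.72), HFSD (19.1 ± 6.89), ND (34.5 ± 12.8) and HFD (53.3 ± 19.0), in which HSD overlapped with HFSD, and ND with HFD. The sucrose diets differed from the diets without sucrose by -1.33 (SE 0.282, -1.99 to -0.67, adjusted p = 0.102). That adjusted p ranged from 0.0768 to 0.277 over the alternatives tried, and the difference from -1.53 to -1.13 when single libraries were left out. Such separation by sucrose was found for 12.9% of the genes tested, and limma called 0.344% of them.

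Taken diet by diet, IGFBP5 differed from ND by -1.23 in HSD (SE 0.399, -2.16 to -0.29, adjusted p = 0.548), by -0.82 in HFSD (SE 0.399, -1.75 to 0.12, adjusted p = 0.662) and by 0.61 in HFD (SE 0.399, -0.32 to 1.55, adjusted p = 0.998). The interaction of fat and sucrose was -0.20 (SE 0.565, -1.52 to 1.12, adjusted p = 0.9993), an interval too wide to say whether the sucrose difference was the same with and without fat. When single libraries were left out, IGFBP5 differed from ND by -1.19 to -0.44 in HFSD, the smallest without ND retina 1, and by 0.24 in HFD without ND retina 2 to 0.99 without ND retina 1. Without HFSD retina 1 the HFSD difference was -0.46, and the HFD difference was 0.98 without HFD retina 1 and 0.25 without HFD retina 2. Its fragments, 153 to 1061 per retina, left counting error well under the spread between retinas of a diet. IGFBP5 and IGFBP2 are in the study's own list of genes for HSD and HFSD, which was chosen on these samples and is not independent evidence of their direction.

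IGFBP2, a binding protein abundant in the nervous system, was measured at 18.3 and 4.80 FPKM on ND, 16.6 and 9.56 on HFD, 5.29 and 5.58 on HSD and 3.23 and 6.86 on HFSD. Of the 4 retinas without sucrose, 3 were above every sucrose retina and the other, ND retina 2, was within the range of the sucrose retinas. The means ran from HFSD (5.05 ± 2.57) and HSD (5.44 ± 0.202) to ND (11.5 ± 9.54) and HFD (13.1 ± 4.95). Neither sucrose diet was separate from ND, whose 2 retinas differed more from each other than any diet mean did from another. The sucrose diets differed from the diets without sucrose by -0.98 (SE 0.392, -1.90 to -0.06, adjusted p = 0.250). HSD differed from ND by -0.72 (SE 0.554, -2.01 to 0.58) and HFSD by -0.87 (SE 0.554, -2.17 to 0.42). These rested on ND retina 1, without which the differences from ND were 0.15 and -0.01 and the sucrose difference was -0.54. Without ND retina 2 they were -1.58 in HSD and -1.74 in HFSD, and the HFSD difference was -0.43 without HFSD retina 1 and -1.32 without HFSD retina 2.

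**Figure D2:**
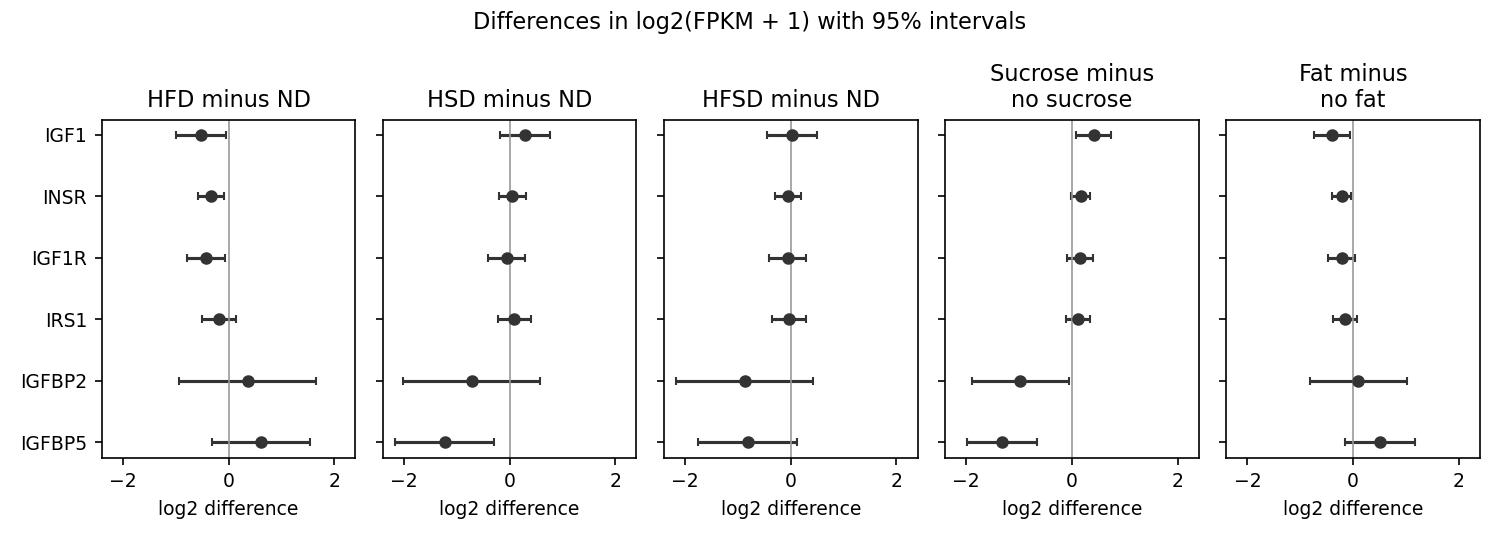
Differences of the 6 genes in log2(FPKM + 1) for each diet against ND, for the sucrose diets against the diets without sucrose and for the fat diets against the diets without fat. Points are limma estimates and lines their 95% intervals, not adjusted over genes. The estimate for IGFBP5 on sucrose lies at -1.33, and the intervals of IGFBP2 against ND are the widest.

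The study's rule of size, the ratio of (mean FPKM + 1) in a diet to that in ND below 0.65 or above a limit close to the reciprocal of that, was applied to the 6 genes as a description. In HSD the rule took IGFBP5 (ratio 0.428) and IGFBP2 (0.513), and in HFSD the same genes at 0.566 and 0.482. In HFD it took none of the 6, with IGFBP5 just inside the upper limit at 1.53 and IGF1 just inside the lower at 0.682. Of the 19293 protein-coding genes, 3.95% passed the rule in HSD, 3.43% in HFSD and 1.76% in HFD. Without ND retina 1, IGFBP5 alone passed in HSD and neither gene in HFSD, while IGFBP2 and IGFBP5 passed in HFD. Limma called 0.0574% of genes in HSD and 0.0164% in HFSD against ND, and none of the 6.

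Groups did not overlap for 1 of the 6 genes in HSD against ND and for 1 in HFSD against ND, IGFBP5 in both, where 39% and 42.3% of all genes tested did not overlap. For fat against no fat none of the 6 was separate, as against 1.34% of all genes, limma called 0.00819% of genes and 2 of the 6 (INSR and IGF1) had an unadjusted p under 0.05, as did 3.20% of all genes. Over the 6 genes the median log2 difference was 0.14 for sucrose, against -0.01 over all genes, with IGF1, INSR, IGF1R and IRS1 higher on sucrose and IGFBP2 and IGFBP5 lower. Of these, 3 (IGF1, IGFBP2 and IGFBP5) had an unadjusted p under 0.05, as did 18.3% of all genes.

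IGF1 was lowest and IGFBP5 highest on HFD by their means, and on HSD IGF1 was highest and IGFBP5 lowest. The ratio of IGFBP5 to IGF1, both in FPKM, was 3.41 and 3.13 on ND, 5.66 and 10.1 on HFD, 1.51 and 0.767 on HSD and 1.501 and 2.12 on HFSD. HFD retinas had the highest ratios and sucrose retinas the lowest, with the ND retinas between them. With IGFBP2 added to IGFBP5 the ratio was 4.84 and 3.72 on ND, 8.02 and 11.5 on HFD, 1.94 and 1.19 on HSD and 1.84 and 2.73 on HFSD, in the same order. These ratios were formed after the values of the single genes had been seen and carry no test, and they compare RNA levels, not proteins.

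The cell types in the libraries bear on these values, since in whole retinas fewer cells of a type cannot be told apart from less RNA per cell. Rod markers (5 of 7 found) had the highest sum of the 16 marker lists in all 8 libraries, at 26844 to 37329 FPKM. Cone markers (5 of 6 found) summed to 451 to 597 FPKM without sucrose and 770 to 933 with it. All 5 had a higher mean on sucrose (median log2 difference 0.64, 2 called by limma), and 4 of the 5 had a lower mean in HFD than in ND (median -0.23), the directions of IGF1, INSR, IGF1R and IRS1 in both comparisons. OPN1SW went the other way in HFD, at 114 and 80.9 FPKM against 69.1 and 67.6 on ND. The cone sum was 590 and 529 FPKM on ND and 597 and 451 on HFD. HFD retina 1 thus had the highest cone sum without sucrose. The part of cone content in the results of IGF1, INSR, IGF1R and IRS1 was not tested. Myelin genes, which mark the nerve fibre region, varied widely. The sum of the 6 myelin markers was 699 and 95.7 FPKM on ND, 467 and 341 on HFD, 58.6 and 45.4 on HSD and 61.0 and 154 on HFSD. The 3 retinas with the most myelin RNA (ND 1, HFD 1 and HFD 2) were, in this order, the 3 with the most IGFBP2, HFSD retina 2 came next in both, and ND retina 2, low in myelin RNA, was low in IGFBP2. The order of the lower retinas was not shared. ND retina 2 was above both HSD retinas for myelin RNA and below both for IGFBP2. MOBP, one of the defining myelin genes, was at 0 in 3 of the 4 sucrose retinas, at 1.49 FPKM in HFSD retina 2 and at 0.120 FPKM in ND retina 2. All 6 myelin genes had a lower mean on sucrose, with a median log2 difference of -1.87 and none called by limma. The sum of the 4 astrocyte markers was 1114 and 380 FPKM on ND, 961 and 604 on HFD, 476 and 234 on HSD and 328 and 458 on HFSD, and all 3 astrocyte genes tested had a lower mean on sucrose (median log2 difference -0.55, none called by limma). GFAP, a filament protein of astrocytes and of reactive Müller glia, was at 12.1 to 524 FPKM without sucrose and 1.08 to 69.5 with it, while S100B, which made up most of the sum, was at 362 to 738 and 230.1 to 471 FPKM. The part of myelin and astrocyte content in the IGFBP2 result was not tested.

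HFD retina 2, with the most IGFBP5, ranked below ND retina 1 and HFD retina 1 for myelin RNA. The sum of the 9 microglia markers was 14.5 to 25.3 FPKM without sucrose and 9.80 to 13.8 with sucrose, and all 8 microglia genes tested had a lower mean on sucrose. Müller glia markers (8 of 9 found) summed to 3362 to 4558 FPKM without sucrose and 2423 to 2542 with it. Mural cell markers, of the cells around small vessels, summed to 7.01 to 21.4 FPKM without sucrose and 3.85 to 25.2 with it, and all 5 mural genes tested had a lower mean on sucrose (median log2 difference -0.61, none called by limma). The highest mural sum, in HSD retina 2, held 15.8 FPKM of DES, a gene that muscle also uses, and without DES it was 9.36 FPKM. HSD retina 2 held skeletal muscle RNA, with a muscle marker sum of 516 FPKM against 3.77 to 5.70 in the other 7 retinas, and without it the sucrose difference of IGFBP5 was -1.13. Pigment epithelium markers summed to 417 and 356 FPKM in ND retinas 1 and 2, and to 125 to 190 in the other 6. The part of pigment epithelium in the differences of HFD from ND was not tested, nor that of myelin, microglia, Müller glia, astrocytes and mural cells in the IGFBP5 result.

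**Figure D3:**
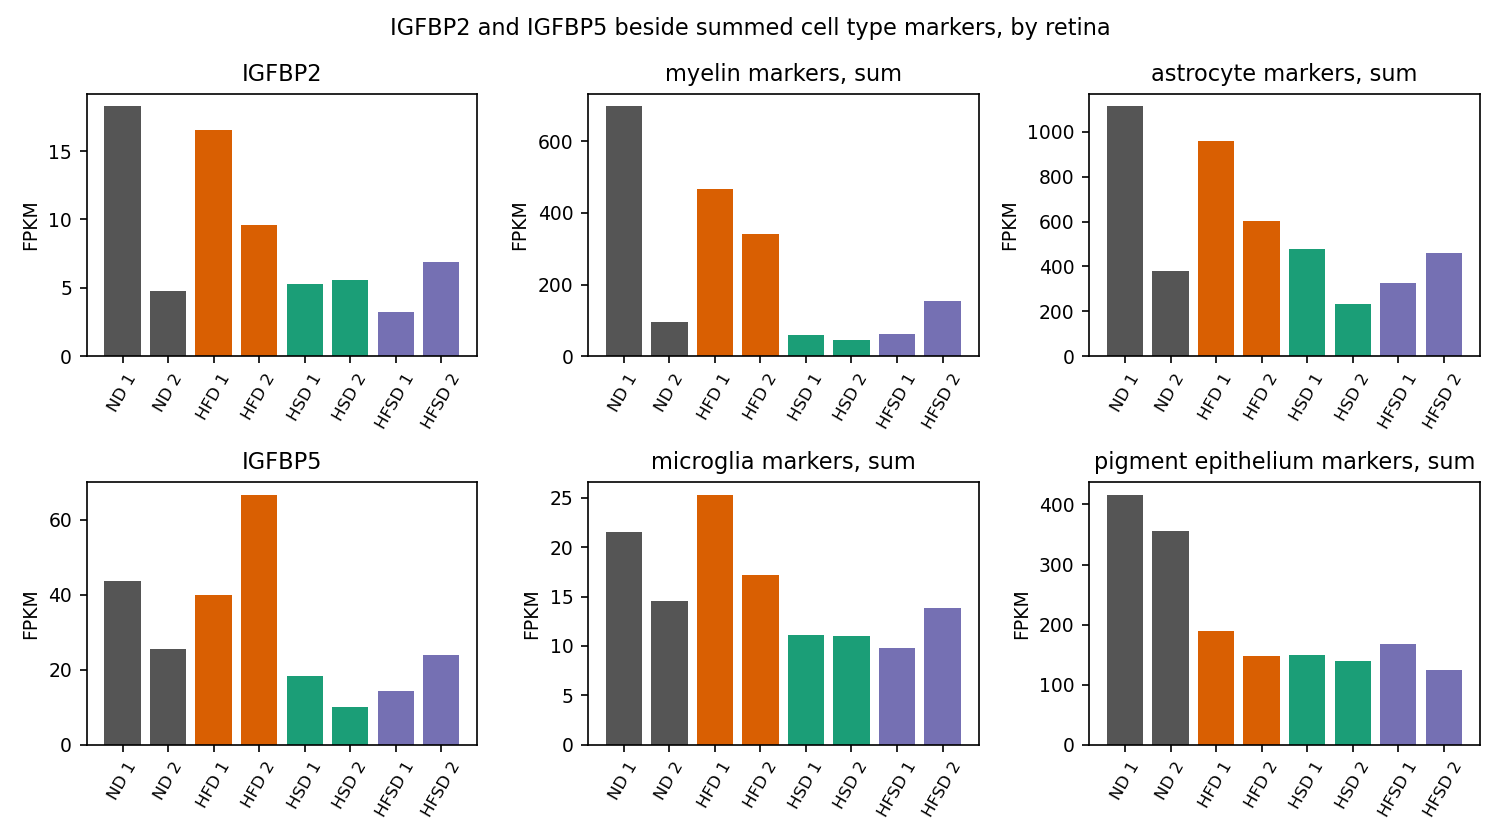
IGFBP2 and IGFBP5 (left) beside the summed FPKM of myelin, astrocyte, microglia and pigment epithelium markers in each retina, coloured by diet. IGFBP2 and the myelin sum are both highest in ND retina 1 (18.3 and 699 FPKM), and the pigment epithelium sum is highest in the ND retinas.

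The genes whose profiles over the 8 retinas lay closest to each of the 3 most variable members were found by the root mean square difference of centred log2(FPKM + 1) among 9876 other named genes. For IGFBP2 (own deviation 0.73) these were ENPP6 at 0.21, CNDP1 at 0.23 and BGLAP at 0.23, and ENPP6 is known as an enzyme of oligodendrocytes, the myelin-forming cells. CNDP1 was at 27.8 and 8.32 FPKM on ND, 22.9 and 16.5 on HFD, 8.93 and 5.84 on HSD and 6.53 and 11.6 on HFSD. Its 4 highest retinas were those of IGFBP2 in the same order. CNDP1 was picked for its likeness over these same retinas, so the shared order is not independent evidence. For IGFBP5 (own deviation 0.81) the nearest were CD74 at 0.23, the invariant chain of antigen-presenting cells, VIP at 0.28, a neuropeptide of amacrine cells, and CYP26B1 at 0.35, which degrades retinoic acid. VIP and CYP26B1 were among the genes limma called for sucrose (log2 difference -1.33, adjusted p = 0.0385, and -1.22, adjusted p = 0.0452), and CD74 was not (-1.24, adjusted p = 0.0629). VIP measured 3.57 and 2.81 FPKM on ND, 5.36 and 6.73 on HFD, 1.36 and 1.06 on HSD and 0.719 and 1.60 on HFSD. For IGF1 (own deviation 0.33) the nearest were B3GALT1 at 0.10, KLHL4 at 0.14 and SPEF2 at 0.14. IGFBP2 and IGFBP5 are neighbours with no gene listed between them in the RefSeq annotation of the rabbit assembly mOryCun1.1, and their own profiles differed by 0.57.

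Of 107 further genes of the pathway in 6 lists, 89 had a row and 76 passed the filter, and none was called by limma in any of the 6 contrasts. With an unadjusted p under 0.05 for sucrose there were 12 higher and 12 lower, 31.6% of the 76, beside 18.3% of all genes. For HFD against ND the numbers were 1 higher and 3 lower, 5.26% of the 76 beside 4.31% of all genes, and 8 of the 76 (10.5%) had both HFD retinas below the other 6, beside 6.37% of all genes.

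**Figure D4:**
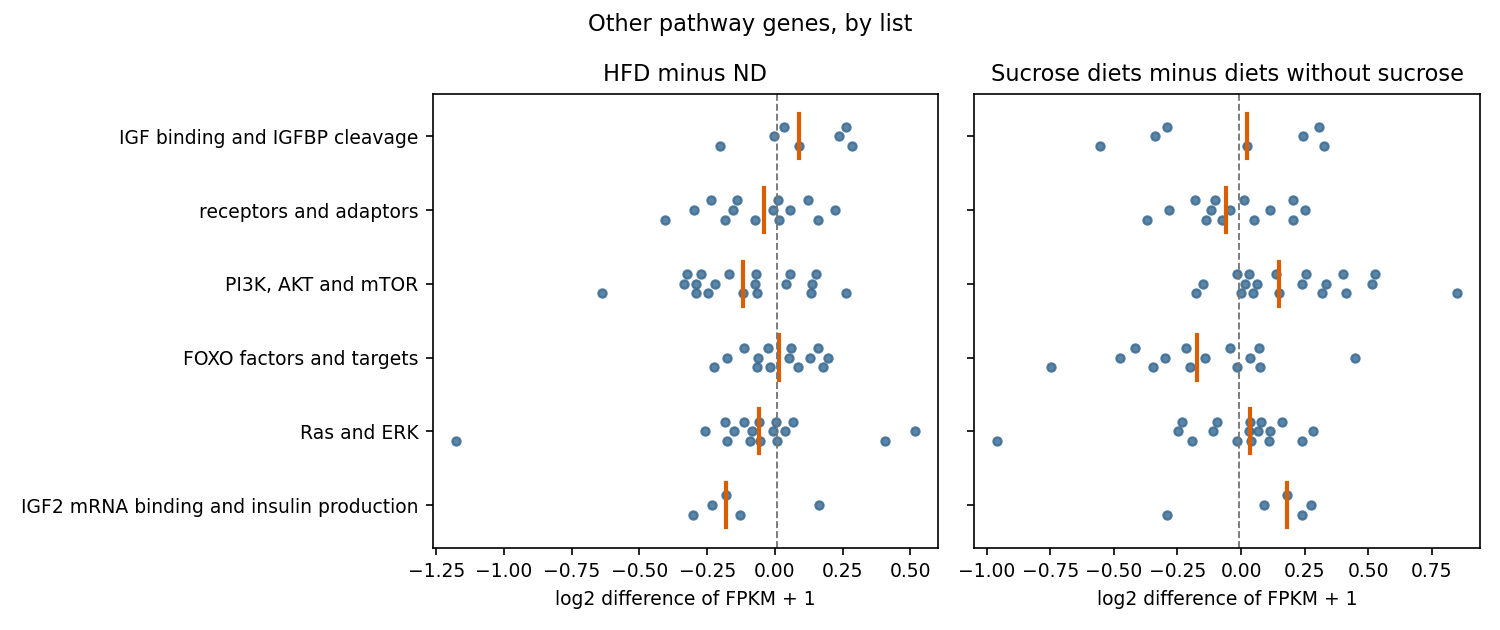
Log2 differences of the 76 further pathway genes tested, by list, for HFD against ND (left) and for the sucrose diets against the diets without sucrose (right). Each point is 1 gene, the short bar is the median of the list and the dashed line is the median of all 12204 genes. Of the 19 PI3K, AKT and mTOR genes, 16 lie above 0 on the right.

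The PI3K, AKT and mTOR list had 19 of its 30 genes tested, 16 with a higher mean on the sucrose diets (median log2 difference 0.15) and 13 with a lower mean in HFD than in ND (median -0.12). Over the list, 9 were higher with an unadjusted p under 0.05 for sucrose and none lower, where 18.3% of all genes had such a p in either direction. The cone marker sum was also higher in every sucrose retina (770 to 933 FPKM) than without sucrose (451 to 597), and its part in the list was not tested. RICTOR, the defining subunit of the second mTOR complex, was at 6.50 to 10.9 FPKM without sucrose and 11.9 to 13.3 with it (log2 difference 0.53, SE 0.131, adjusted p = 0.133). GSK3B, a kinase that AKT inhibits, was at 10.2 to 17.3 FPKM without and 20.1 to 21.1 with sucrose (0.51, SE 0.131, adjusted p = 0.138). The ranges of both genes did not overlap. PIK3CB, a catalytic subunit of PI3K, had the largest difference of the list at 0.85 (SE 0.308, adjusted p = 0.217), but its values of 22.9 to 57.0 FPKM with sucrose overlapped with 12.9 to 27.7 without, and the highest was that of HSD retina 2, which held muscle RNA. EIF4EBP1, a repressor of translation that mTOR switches off, was named for the fat diets, where it was at 11.1 to 25.2 FPKM, against 11.2 to 14.9 without fat (0.36, adjusted p = 0.9996).

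The list of FOXO factors and their targets had 14 of 20 genes tested, 10 of them with a lower mean on sucrose (median -0.17). An unadjusted p under 0.05 for sucrose was found for 4 lower genes and 1 higher gene of the 14, and for 18.3% of all genes. DDIT4, an inhibitor of mTOR that stress and glucocorticoids induce, was at 63.8 to 128 FPKM without sucrose and 43.3 to 55.3 with it, with no overlap (log2 difference -0.75, SE 0.245, adjusted p = 0.193). SESN3, a sestrin that restrains mTOR, went the other way at 26.3 to 33.9 without and 38.7 to 46.6 FPKM with sucrose (0.45, SE 0.0900, adjusted p = 0.0948). PDK4, which curbs the use of glucose by mitochondria, was near the filter at 1.01 to 1.96 and 0.684 to 1.04 FPKM (-0.47, adjusted p = 0.233). GADD45A, a stress-response gene, overlapped between fat and no fat (0.18, adjusted p = 0.9996).

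Of the other proteins that hold or cleave at the binding proteins, 7 of 11 were tested, 4 with a higher and 3 with a lower mean on sucrose (median 0.02). The 3 lower genes and none of the higher had an unadjusted p under 0.05, as did 18.3% of all genes in either direction. HTRA1, a secreted protease known to cleave IGF binding proteins, was at 24.4 to 30.4 FPKM without sucrose and 15.5 to 22.9 with it, with no overlap (-0.56, SE 0.0928, adjusted p = 0.0718). IGFBP6, which prefers IGF2, was at 38.1 to 55.3 and 33.4 to 40.6 FPKM (-0.34, SE 0.104, adjusted p = 0.175). PAPPA2, a protease for IGFBP5, was at 1.496 to 2.13 FPKM without and 1.55 to 2.86 with sucrose (0.33, adjusted p = 0.338).

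Receptors and adaptors other than the 6 genes had 14 of 18 tested, with 6 higher and 8 lower on sucrose (median -0.06) and 1 in each direction with an unadjusted p under 0.05, beside 18.3% of all genes in either direction. CBL, a ubiquitin ligase for receptor kinases, was at 5.08 and 5.61 FPKM in HFD and at 6.88 to 8.08 in the other 6 retinas (sucrose difference 0.25, adjusted p = 0.224). GAB1, a docking protein, was at 4.80 to 7.22 and 4.19 to 5.17 FPKM (-0.28, adjusted p = 0.359), and SH2B2, an adaptor of receptor kinases, differed by 0.21 for fat (adjusted p = 0.9996).

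The Ras and ERK list had 17 of 20 genes tested, 10 higher and 7 lower on sucrose (median 0.04), of which 1 higher and 3 lower had an unadjusted p under 0.05, as did 18.3% of all genes. DUSP6, the phosphatase of ERK whose transcript ERK itself induces, was at 33.3 and 55.3 FPKM on ND, 20.3 and 16.7 on HFD, 10.7 and 16.8 on HSD and 18.4 and 11.6 on HFSD. It was highest in the ND retinas, which also had the most pigment epithelium RNA, whose part was not tested, and lower with sucrose by a log2 difference of -0.96 (SE 0.224, adjusted p = 0.117) and with fat by -0.53 (adjusted p = 0.9996). HFD differed from ND by -1.18, the HFSD mean of 15.0 FPKM lay beside an HSD mean of 13.8, and the interaction was 1.29 (SE 0.449, adjusted p = 0.9993). SPRY2, a feedback inhibitor of receptor kinases, was at 56.3 to 64.8 without and 47.1 to 52.5 FPKM with sucrose (-0.25, SE 0.0784, adjusted p = 0.181), with no overlap. RASA1, which turns Ras off, was at 46.9 to 64.4 and 62.1 to 75.1 FPKM (0.28, adjusted p = 0.270).

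The last list, of IGF2 mRNA binding proteins and of insulin production and breakdown, had 5 of 8 genes tested, 4 higher and 1 lower on sucrose (median 0.18) and only the lower with an unadjusted p under 0.05, beside 18.3% of all genes. INS itself did not pass the filter. PCSK2, a convertase of prohormones, was at 4.10 to 5.56 FPKM without sucrose and 3.09 to 4.19 with it (-0.29, SE 0.103, adjusted p = 0.211). PCSK1 (0.24, adjusted p = 0.374) and IGF2BP3 (0.27, adjusted p = 0.569) overlapped between the groups. IDE, which degrades insulin, was at 20.3 to 26.9 without and 24.9 to 28.0 FPKM with sucrose (0.18, adjusted p = 0.343).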

How the data were processed

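Retinal RNA was sequenced by the authors from TruSeq libraries on an Illumina instrument. Per the study's methods, reads were checked with FastQC, trimmed and aligned with TopHat2 allowing up to 2 mismatches, reads with several positions were discarded, and FPKM was computed with an R script. The genome build and annotation are not given in the sources used here. The deposited table holds FPKM, although its name speaks of counts. Fragments per gene were recovered as whole multiples of each library's smallest steps: 100% of 142752 values above 0 came out whole within 0.02 fragments.

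The 12204 protein-coding genes that reached 1 FPKM in 2 or more libraries were tested on log2(FPKM + 1) with limma 3.58.1 (R 4.3.3, with a trend of the prior variance), in 1 fit of all 8 libraries, for 6 contrasts: each diet against ND, sucrose, fat and their interaction, with Benjamini-Hochberg adjustment over all genes and a threshold of 0.05. Differences are thus on the log2(FPKM + 1) scale, which understates changes of low genes. Poisson intervals (95%, exact) cover counting error only. The same fit with voom on recovered fragments (TMM scaling) was an alternative. All 10 listed genes were to be named, and, in 6 pathway lists, the 3 genes with the largest sucrose difference, the 2 with the largest fat difference and any gene called. Some genes that this rule names are not reported here. The members and all lists were chosen with earlier results of these data known. Cell types were followed with 16 marker lists.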

Additional observations from a re-analysis of the deposited data

How the results depend on the processing

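No difference of any of the 6 genes passed the threshold under any alternative, and of 570 differences recomputed under alternatives, 544 kept their sign. The other 26 changed it, and they lie in the ranges that follow. Leaving out single libraries moved IGFBP2 in HFD against ND between -0.50 and 1.23, in HSD against ND between -1.58 and 0.15, for fat between -0.33 and 0.54 and for the interaction between -1.39 and 0.35; IGF1 in HSD against ND between -0.013 and 0.58, in HFSD against ND between -0.28 and 0.31 and for the interaction between -0.043 and 0.55; INSR in HSD against ND between -0.0047 and 0.10 and in HFSD against ND between -0.10 and 0.0038; IGF1R in HSD against ND between -0.16 and 0.049 and in HFSD against ND between -0.17 and 0.043; IRS1 in HFSD against ND between -0.13 and 0.057 and for the interaction between -0.034 and 0.15; and IGFBP5 for the interaction between -0.60 and 0.19. IRS1 in HFSD against ND was 0.0063 at an equal FPKM sum and IGF1 there was -0.011 with voom on recovered fragments. The medians of the 6 genes moved by less than the spread between retinas.

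Over all genes, the number called for sucrose was 42, and was 8 with no filter, 141 in a fit of 2 groups of 4 that left out fat, 25 with the replicate block, 20 with voom and 4 (without HSD retina 2) to 82 (without ND retina 1) when single libraries were left out. For HFD it was 1, 2 in a fit of the 4 libraries compared and 1 to 2 without single libraries. For HSD it was 7, 3 with no filter, 3 in a fit of the 4 libraries compared, 1 with voom and 3 to 17 without single libraries. For HFSD it was 2, 4 at an equal FPKM sum, 0 in a fit of the 4 libraries compared, 4 with the replicate block and 2 to 11 without single libraries. For fat it was 1, 0 with no filter, 0 in a fit of 2 groups of 4 that left out sucrose and 0 to 5 without single libraries. For the interaction it was 1, 0 with a pseudocount of 0.1, no filter, a mean of at least 1 FPKM, median-of-ratios scaling, the replicate block or voom, and 0 to 10 without single libraries. The cause of these changes was not tested. Outside the replicate block, replicate numbers were treated as names of the samples. Deviations of same-numbered retinas correlated at -0.16 to 0.08, which does not settle whether the numbers mark a pairing. In fits of 4 libraries the pairing by number called 12 (HFD), 5 (HSD) and 0 (HFSD) genes. The crossed pairing, added after seeing the data, called 0, 0 and 3. Members past the fold rule numbered 0 in HFD (1 with a pseudocount of 0.1, 0 to 2 without single libraries), 2 in HSD (1 to 2) and 2 in HFSD (0 to 2). Members not overlapping numbered 1 in HSD (3 at an equal FPKM sum, 1 to 5 without single libraries), 1 in HFSD (0 at an equal FPKM sum, 2 to 5), 1 for sucrose (0 at an equal FPKM sum, 1 to 2) and 0 for fat (0 to 1); fewer libraries make separation easier.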
